A study of Mus musculus with 24 samples.

Results

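The miR-129 family was followed by 4 miRNAs: mmu-miR-129-5p, mmu-miR-129-1-3p, mmu-miR-129-2-3p and mmu-miR-129b-5p (the prefix, for mouse, is left out below). They were taken by name from the 1881 mouse miRNAs on the array, and with earlier results of these data in view. The first 3 were chosen by their levels across tissues, and miR-129b-5p also by its rise under the −30 D lens. A microRNA is a short RNA cut from a hairpin precursor, and each hairpin can give one product from its 5′ arm and one from its 3′ arm. The product is loaded into an Argonaute protein and guides it to messenger RNAs that pair with its seed (bases 2 to 8), which are then repressed. miR-129-5p and the 3′ products of its hairpins are known as brain miRNAs of neurons, whereas miR-129b is a later annotation of which little is known.

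Total RNA of C57BL/6J mice was measured on 24 single-color arrays, 1 for each of 8 tissues (retina, choroid, iris, sclera, cornea, lens and the regions labelled SCN and LGN) in 3 groups. A −30 D lens was fixed on the right eye of male mice at 3 weeks of age and worn for 3 weeks, and normal eyes came from mice that wore no lens. A group with a 0 D lens made up the other 8 arrays, and the wearing time of that lens is not given in the sources used here. RNA of 3 mice was pooled for each ocular array of the normal and the −30 D group, whereas the pooling of the 0 D and brain arrays is not given. The 8 arrays of each group lay on a slide of their own, so that an effect of the slide cannot be told apart from that of the lens, and each tissue was measured once per group. The choroid sample is described in the paper as RPE/choroid. Every ± value of a single signal or ratio below is the error within the arrays, and no value covers the spread between mice.

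A miRNA was called detected when at least 1 of its probes had a signal above 3 times its own error, and its signal was the sum over such probes, scaled between arrays on the 79 miRNAs detected everywhere. Between 129 and 249 miRNAs were detected per array, and the scaling moved the arrays by log2 factors from −1.01 to 1.65. Marker miRNAs were in place for the retina, where the sum of the sensory cell miRNAs miR-183-5p, miR-96-5p and miR-182-5p was 14498 to 16170, against 0 to 8.21 in the SCN and 0 to 3.97 in the LGN. The oligodendrocyte miRNAs miR-219a-2-3p and miR-338-3p summed to 193 to 291 in the SCN and 507 to 759 in the LGN. miR-184-3p, a miRNA of corneal and lens epithelium, lay between 29710 and 36854 in the cornea and between 11130 and 16390 in the lens.

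The sequences show how the members are related, and RefSeq on build GRCm38.p6 held 3 of the 4 mature forms. miR-129-1-3p is given by name only. They are printed 5′ to 3′ with the seed in capitals:
miR-129-5p: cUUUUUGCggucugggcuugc
miR-129-2-3p: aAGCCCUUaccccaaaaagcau
miR-129b-5p: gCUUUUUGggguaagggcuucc
No other listed mouse miRNA had any of these 3 seeds, but miR-129-1-3p was not listed. The hairpin of miR-129-1-3p, Mir129-1, holds a run of 19 of the 22 bases of miR-129-2-3p, which includes the seed. miR-129-5p and miR-129b-5p shared a run of 7 bases, but it began at base 1 in miR-129-5p and at base 2 in miR-129b-5p, so that their seeds were shifted by 1 base against each other.

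miR-129-5p is made from both of the classical hairpins. Mir129-1 lies at chr6:29022619-29022691 on the plus strand, in no other gene of the table, with Lep as the nearest protein-coding gene at 37530 bases. Mir129-2 lies at chr2:94241364-94241453 on the minus strand, within the span of the long non-coding RNA gene Mir670hg (chr2:94160636-94265103). Neither arm of miR-670, whose hairpin lies in the same span, was detected on any of 24 arrays. The Mir129b hairpin lies at chr2:94241378-94241442 on the plus strand, and all of its 65 bases are opposite Mir129-2. The 2 hairpins of chromosome 2 are shown with their listed mature arms in capitals, since they place the member that departs from the others:
Mir129-2: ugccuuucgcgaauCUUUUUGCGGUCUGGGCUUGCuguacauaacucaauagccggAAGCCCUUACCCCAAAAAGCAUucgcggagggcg
Mir129b: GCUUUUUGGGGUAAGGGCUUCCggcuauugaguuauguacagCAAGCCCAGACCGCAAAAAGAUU
miR-129b-5p is thus the antisense of miR-129-2-3p, with the first 20 bases of each complementary to the other. These bases are in capitals here:
miR-129b-5p: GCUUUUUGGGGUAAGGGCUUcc
miR-129-2-3p: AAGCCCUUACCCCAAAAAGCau
The opposite arm, miR-129b-3p, was on the array and was detected on 0 of 24 arrays.

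**Figure D1:**
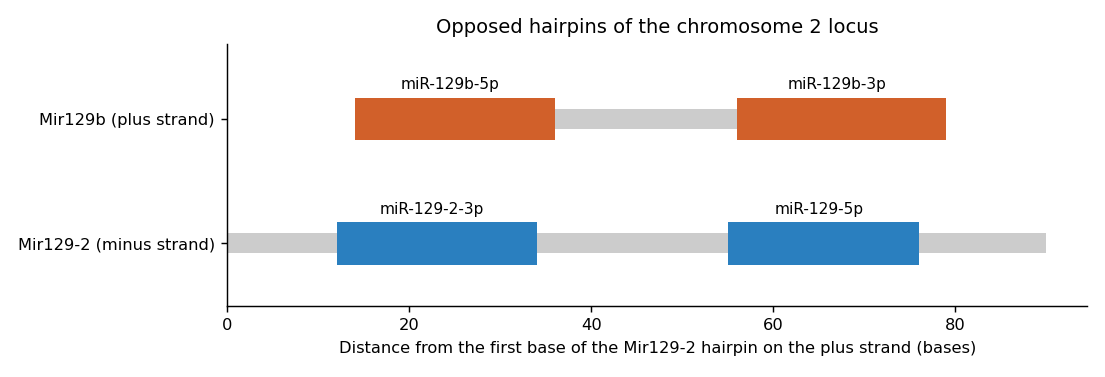
Positions of the Mir129b and Mir129-2 hairpins (grey) and their mature arms (colored) along chromosome 2, in bases from the first base of Mir129-2 on the plus strand. miR-129b-5p lies opposite miR-129-2-3p, and the whole Mir129b hairpin of 65 bases lies opposite Mir129-2.

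The 3 classical arms were high in the retina, SCN and LGN and low or not detected elsewhere, whereas miR-129b-5p was not detected in these 3 tissues and was found in iris, choroid, sclera and cornea. Since the members were chosen with this pattern known, their tissue levels are a description and were not tested. miR-129-5p and miR-129-2-3p were each detected on 18 of 24 arrays, miR-129-1-3p on 12 and miR-129b-5p on 9. Signals of different miRNAs depend on their probes, and levels are therefore compared between arrays only.

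miR-129-5p, the arm shared by both hairpins, had a scaled signal of 382 ± 34.4 in the normal retina, 306 ± 27.0 in the 0 D retina and 324 in the −30 D retina. In the SCN the 3 values were 253, 158 and 239, and in the LGN they were 158, 118 and 148, in the same order of groups. The choroid had 22.7 ± 2.60, 15.98 ± 2.21 and 15.4 ± 1.996. Retina was thus the highest tissue and LGN the lowest of the neural tissues in every group, and no choroid array reached a neural array. The sclera followed with 8.72, 6.05 and 7.36, and the iris had the lowest detected values with 6.12, 3.77 and 4.27. Cornea and lens had no detected signal, but their limits, 3 errors of each probe summed over 2 probes, were 15.8 to 27.4. These limits were above every sclera and iris signal. In sclera and iris, however, only 1 probe was detected, and a signal on 1 probe can be detected below such a sum. A level like that of sclera or iris could still have gone undetected in cornea or lens. Retina exceeded SCN by 0.66 ± 0.26 (SD over the 3 groups, n = 3) on the log2 scale, LGN by 1.26 ± 0.12 and choroid by 4.24 ± 0.16, a fold of 18.9 for the last. Retina was at least 11.8-fold to 20.5-fold above cornea and lens, by tissue and group. Below the LGN the order choroid, sclera, iris also held in each group, with choroid above sclera by 1.28 ± 0.19 and sclera above iris by 0.66 ± 0.14 (SD, n = 3). Single sclera arrays had errors of 1.47 to 1.97 around signals of 6.05 to 8.72, so that sclera and iris were less than 2 combined errors apart in each group.

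miR-129-2-3p, the 3′ arm of the chromosome 2 hairpin, was highest in the SCN, with 521, 499 and 512 in the normal, 0 D and −30 D group. The retina had 424, 443 and 352 and the LGN 277, 296 and 238. The 3 SCN arrays therefore lay above every retina array, and the retina arrays above every LGN array. The choroid had 24.8, 24.2 and 17.3, the sclera 9.22, 8.71 and 7.90, and the iris 8.010, 6.18 and 4.76. As for miR-129-5p, the order choroid, sclera, iris held in each group, and no signal was detected in cornea or lens. The limits there, summed over 2 probes, were 15.9 to 27.5 and again above every sclera and iris signal, of which only 1 probe was detected. Retina was below SCN by a log2 difference of −0.34 ± 0.19 (SD, n = 3) and above LGN by 0.59 ± 0.03 and choroid by 4.21 ± 0.13. The order of retina and SCN depended on the scaling, since without it retina was higher by 0.30.

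miR-129-1-3p, the 3′ arm of the chromosome 6 hairpin, was highest in the LGN, with 75.6, 82.5 and 68.4 in the normal, 0 D and −30 D group. The retina had 58.4, 64.9 and 47.4 and the SCN 53.3, 43.4 and 45.6. The LGN arrays lay above all others, whereas retina and SCN arrays overlapped and their log2 difference of 0.25 ± 0.28 (SD, n = 3) was within its spread. Outside these tissues it was found on 2 choroid arrays, with 4.77 ± 1.35 in the normal and 4.91 ± 1.61 in the 0 D group, and on the 0 D iris array with 2.36. These signals were at the limit of detection, since the highest probe of the 0 D choroid reached 3.05 times its error and that of the 0 D iris 3.08, against 2.93 for the −30 D choroid, which was counted as not detected.

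miR-129b-5p had another distribution, which overlapped that of miR-129-5p and miR-129-2-3p in choroid, iris and sclera. In the sclera it had 14.4, 15.3 and 41.4 in the normal, 0 D and −30 D group, in the iris 7.72, 6.66 and 17.8, and in the choroid 10.9 in the normal and 15.96 in the −30 D group. The 0 D choroid missed detection narrowly, its higher probe being at 2.99 times its error. In the cornea it was detected on the −30 D array alone, with 36.1. It was detected on no retina, SCN, LGN or lens array. Where found, it was thus highest on the −30 D array of each tissue, and sclera exceeded iris in each group, by 1.11 ± 0.18 (SD, n = 3) on the log2 scale. The sclera was at least 2.29-fold to 6.72-fold above the retina, at least 1.44-fold to 4.76-fold above the SCN and at least 2.55-fold to 5.63-fold above the LGN by group. Against the lens it was at least 1.51-fold higher in the −30 D group and without a bound in the others, because the detection limits of the lens arrays, 21.9 to 27.4, were above the sclera signals there. Both of its probes were above 3 errors on all 9 arrays on which it was detected.

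**Figure D2:**
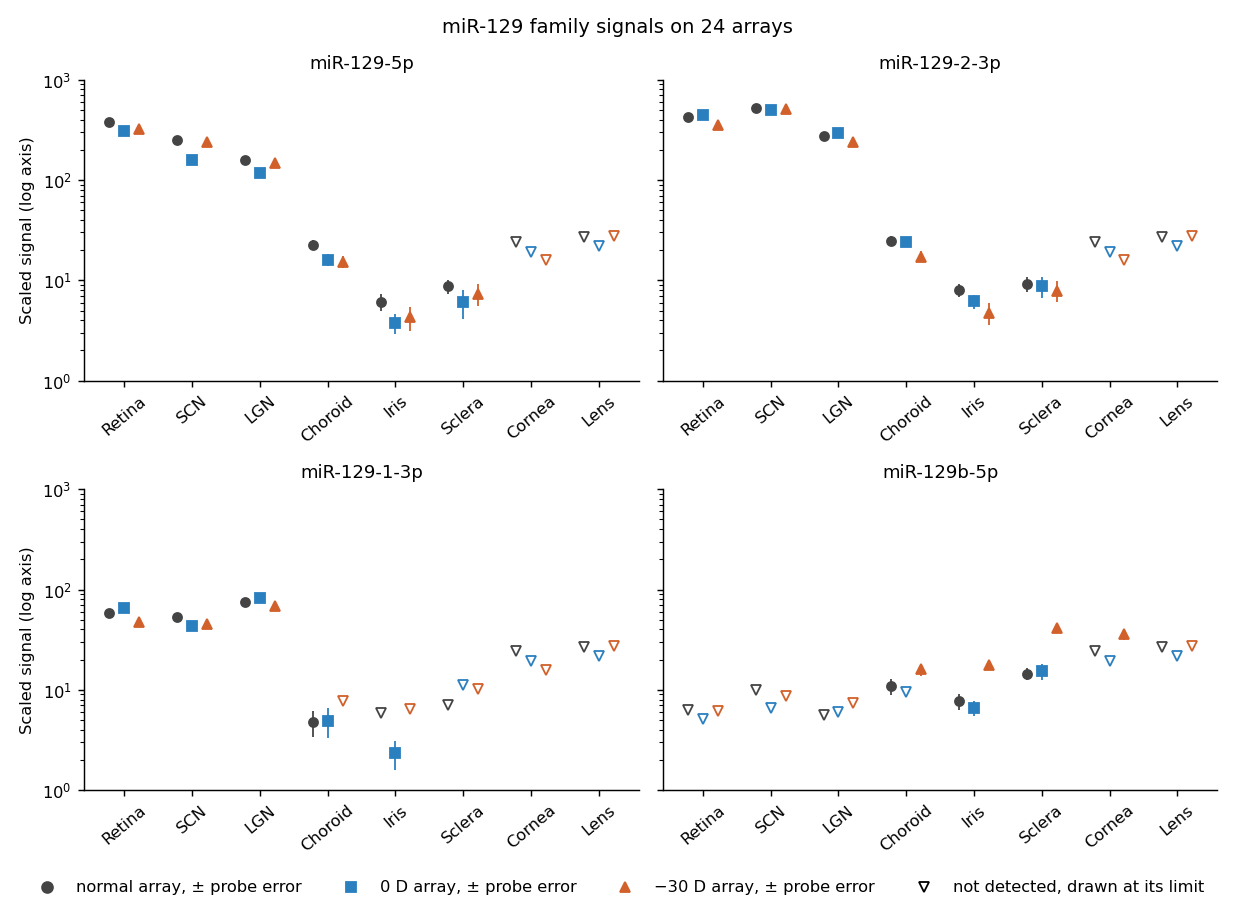
Scaled signal (log axis) of the 4 members in 8 tissues, with 1 point per array colored by lens group and bars for the error within the array. Open triangles mark arrays without detection, drawn at the highest signal that could have gone undetected. The 3 classical arms are highest in retina, SCN and LGN, and miR-129b-5p is detected on 9 arrays of choroid, iris, sclera and cornea.

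To place the members among all miRNAs, the mean log2 signal over the 9 retina, SCN and LGN arrays minus that over the 15 others was taken for the 305 miRNAs detected on at least 6 arrays, with undetected values set to a floor of 9.93. miR-129-2-3p had a difference of 5.04 and ranked 2nd from the highest, miR-129-5p had 4.27 and ranked 5th, and miR-129-1-3p had 2.56 and ranked 21st. Of the 305 miRNAs, 22% were more than 2-fold higher and 16.7% more than 2-fold lower in the neural tissues. miR-129b-5p had −0.45, with 86 of the 305 miRNAs below it, and was not among the 16.7%. Its low signals lie near the floor, and with each array's own lowest signal as the floor the difference was −2.69. Detection on all 9 neural arrays and on none of the 6 arrays of cornea and lens was found for the 3 classical arms and for 17.4% of these miRNAs. Detection on none of the 9 neural arrays was found for miR-129b-5p and for 12.5%. Of a list of 18 miRNAs of neural tissue, which holds the oligodendrocyte miRNAs miR-219a-2-3p (1.76) and miR-338-3p (2.86) beside neuronal ones, 16 were detected on at least 6 arrays, 13 of these were more than 2-fold higher in the neural tissues and their median difference was 2.39, against 0 for all 305. miR-9-3p (5.14), miR-128-3p (4.96) and miR-124-3p (4.59), miRNAs of neurons and their precursors, lay close to miR-129-5p and miR-129-2-3p.

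**Figure D3:**
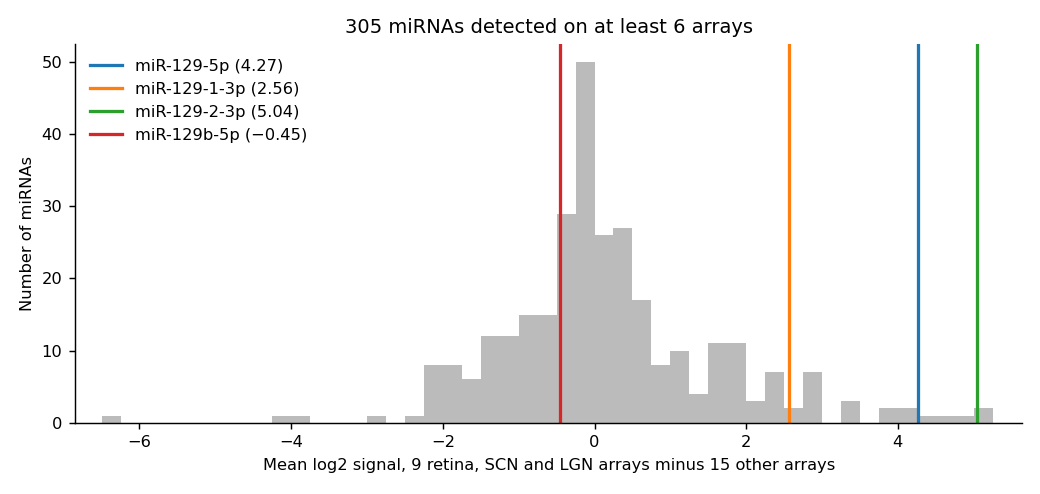
Number of miRNAs (vertical axis) by the difference in mean log2 signal between the 9 retina, SCN and LGN arrays and the 15 other arrays, for the 305 miRNAs detected on at least 6 arrays. Lines mark the members, with miR-129-2-3p (5.04) and miR-129-5p (4.27) at the right end and miR-129b-5p (−0.45) below 0.

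The arms differed in how they were divided among the neural tissues. This was measured as the log2 signal of one arm minus that of another on the same array, in which the scaling between arrays cancels. Only the change of this value between arrays has a meaning, since its level depends on the probes. The 3′ arms of the 2 hairpins are alike, with 19 of the 22 bases of miR-129-2-3p in a run within Mir129-1. Whether the probes of each respond to the other arm was not tested. miR-129-1-3p minus miR-129-2-3p, the 3′ arms of the 2 hairpins, was higher in the LGN than in the SCN by 1.41 in the normal group, 1.68 in the 0 D group and 1.69 in the −30 D group, a mean of 1.59 ± 0.16 (SD, n = 3). The retina lay between them, 0.59 ± 0.16 above the SCN and −1.003 ± 0.08 relative to the LGN. Each of these 3 differences had the same sign in all 3 groups and exceeded its spread. miR-129-5p minus miR-129-2-3p was higher in the retina than in the SCN by 0.998 ± 0.12 and than in the LGN by 0.67 ± 0.11, and LGN was above SCN by 0.32 ± 0.09. Oligodendrocyte miRNAs were also higher in LGN than in SCN (above), and their part in these differences was not tested.

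The classical arms in the tissues around the retina were compared with the retina of the same group. The choroid had 5.30% ± 0.61 (SD, n = 3) of the retinal signal for miR-129-5p and 5.41% ± 0.48 for miR-129-2-3p. The sclera had 2.18% ± 0.17 and 2.13% ± 0.14, and the iris 1.38% ± 0.19 and 1.54% ± 0.30. The 2 arms thus had nearly the same share in each tissue. The sensory cell miRNAs had 7.34% ± 1.76 (miR-183-5p), 6.71% ± 1.61 (miR-96-5p) and 5.61% ± 1.14 (miR-182-5p) in the choroid, and 4.47% ± 2.03, 4.40% ± 2.15 and 3.98% ± 1.74 in the sclera. In the iris miR-183-5p had 0.16% ± 0.05 and miR-124-3p, a neuronal miRNA, 0.21% ± 0.09, below the shares of both miR-129 arms, and miR-182-5p was not detected. miR-9-3p, also of neurons, had 1.41% ± 0.92 in the iris, a share like that of the arms, and 21.3% ± 3.30 in the choroid and 13.5% ± 0.50 in the sclera. miR-128-3p, another neuronal miRNA, had signals of 28.0, 8.73 and 11.2 in the iris of the normal, 0 D and −30 D group against 85.5, 83.7 and 69.1 in the retina. The neural markers thus had unequal shares in these tissues. miRNAs of retinal cells were present with the arms in choroid and sclera, and their part in the levels there was not tested. They were also found in cornea and lens, where the arms were not detected. In the cornea miR-183-5p had 0.93% ± 0.05, miR-96-5p 2.03% ± 0.03 and miR-182-5p 4.93% ± 0.43. In the lens miR-183-5p had 1.98% ± 1.12 and miR-96-5p 2.11% ± 1.11, and miR-182-5p was not detected. miR-124-3p had 0.22% ± 0.04 in the cornea and 2.57% ± 1.49 in the lens. On pooled RNA, fewer cells of a type and less RNA per cell cannot be told apart.

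The lens groups were compared for the 197 miRNAs detected on at least 12 arrays, with the tissue as a block in limma, so that the tissues stand in for replicates. These tissues may come from the same mice, and p-values then measure only how evenly a difference runs through the tissues and the 2 slides. Between the 0 D and the normal arrays, miR-129-5p was lower by 0.53 ± 0.09 (SE) on the log2 scale (limma, adjusted p = 0.00889). The fit covers all 197 miRNAs, but the family was picked with earlier results of these arrays known, and the p-values of its members are not independent of that choice to the extent that lens results played a part in it. miR-129-5p was lower in 6 of 6 tissues that detected it, by log2 ratios from −0.70 ± 0.41 in the iris to −0.32 ± 0.18 in the retina. Only in the SCN (−0.68 ± 0.18) and the LGN (−0.42 ± 0.18) did the ratio exceed 2 of its errors. In the sclera (−0.53 ± 0.53) it was no larger than its error. Of the 197 miRNAs, 7 were called (3.55%), 5 of them lower (2.54%), and 5.37% of the miRNAs measured in at least 6 tissues were lower in every one. miR-129-2-3p did not pass (−0.07 ± 0.09, adjusted p = 0.712), nor did miR-129-1-3p (0.01 ± 0.12, adjusted p = 0.983). The call of miR-129-5p was lost without scaling (−0.26, adjusted p = 0.216), with quantile normalization (−0.47, adjusted p = 0.0576), with ocular tissues alone (−0.51, adjusted p = 0.102) and with undetected values at a common floor (−0.24, adjusted p = 0.140), all by limma.

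The fall of miR-129-5p on the 0 D arrays was also seen against miR-129-2-3p, the other arm of Mir129-2. This comparison was chosen after the values were seen and was not used as a test. Since miR-129-5p is also made from Mir129-1, it does not compare the arms of Mir129-2 alone. miR-129-5p minus miR-129-2-3p was lower on the 0 D than on the normal array in 6 of 6 tissues, by −0.61 in the SCN, −0.51 in the LGN, −0.47 in the choroid, −0.45 in the sclera, −0.38 in the retina and −0.32 in the iris, a mean of −0.46 ± 0.10 (SD, n = 6 tissues). Against the −30 D arrays the 0 D arrays were also lower in 6 of 6 tissues, by a mean of 0.50 ± 0.09, whereas −30 D and normal arrays differed by 0.04 ± 0.11 with 3 tissues on either side. The 0 D arrays are thus the set that stands apart, and both of these comparisons share them. Among 7 pairs of arms measured in at least 6 tissues, this pair included, the mean shift between 0 D and normal arrays ran from −0.46 to 0.50. The lowest mean was that of miR-1839 (−0.461), next to miR-129-5p minus miR-129-2-3p (−0.458). The latter was the only pair with 1 direction in every tissue.

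The 2 probes of miR-129-5p did not move alike. The brighter probe went from 340 in the normal to 266 in the 0 D retina (−0.36 on the log2 scale), from 225 to 138.3 in the SCN (−0.70) and from 141 to 103 in the LGN (−0.45). The dimmer probe went from 41.5 to 39.9 in the retina (−0.06), from 27.5 to 19.9 in the SCN (−0.47) and from 16.5 to 14.6 in the LGN (−0.18). Both were lower in the 3 tissues, the brighter one by more in each. In choroid, iris and sclera only 1 probe of miR-129-5p was detected. The slide and its probe response cannot be told apart from the 0 D lens.

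**Figure D4:**
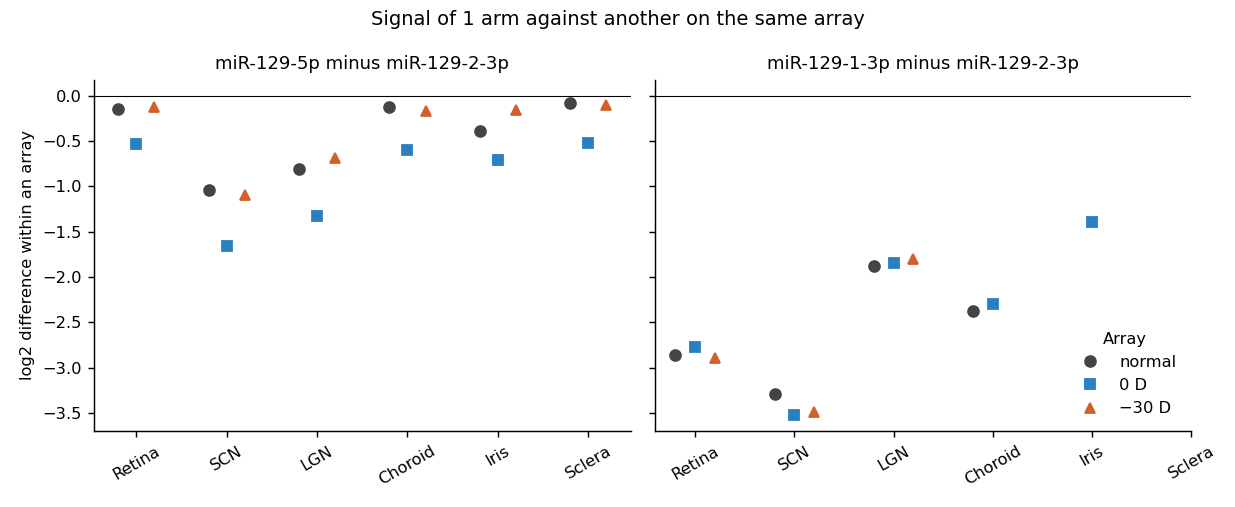
Log2 signal of one arm minus that of another on the same array (vertical axis) by tissue, with 1 point per array and the lens group by color and shape. In the left panel the 0 D array is below both others in each of 6 tissues (mean −0.46 against normal), and in the right panel LGN is above SCN in each group (mean 1.59).

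Between the −30 D and the normal arrays none of the 197 miRNAs passed (0%), with 18 at an unadjusted p under 0.05 in limma. miR-129-2-3p had −0.33 ± 0.09 (SE, adjusted p = 0.118), miR-129-5p had −0.29 ± 0.09 (adjusted p = 0.130) and miR-129-1-3p had −0.22 ± 0.13 (adjusted p = 0.780). miR-129-5p ran from −0.56 in the choroid to −0.08 in the SCN and miR-129-2-3p from −0.75 in the iris to −0.02 in the SCN. Both were lower in 6 of 6 tissues, as were 4.23% of the miRNAs measured in at least 6. Apart from the choroid, each ratio of these 2 arms was within 2 of its errors. In the choroid, where the log2 ratios were −0.56 ± 0.25 for miR-129-5p and −0.52 ± 0.24 for miR-129-2-3p, the summed signal of the neuronal miRNAs miR-124-3p, miR-9-5p and miR-128-3p was 1011 in the normal, 741 in the 0 D and 586 in the −30 D group, and that of the sensory cell miRNAs 1436, 1007 and 813. In the sclera these sums were 596, 346 and 327, and 1094, 441 and 524. The iris had the largest falls of miR-129-2-3p under the −30 D lens (−0.75 ± 0.42) and of miR-129-5p on the 0 D array (−0.70 ± 0.41). There these sums were 61.4, 20.4 and 34.7, and 26.2, 20.5 and 32.8. Their part in the lower signals of choroid, sclera and iris was not tested.

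Between the −30 D and the 0 D arrays 5 miRNAs passed (2.54%), 1 of them lower (0.508%), and none was a member. miR-129-5p had 0.24 ± 0.09 (SE, adjusted p = 0.131), miR-129-2-3p −0.27 ± 0.09 (adjusted p = 0.0989) and miR-129-1-3p −0.22 ± 0.13 (adjusted p = 0.340) by limma. Of the 10 miRNAs of the neural list that could be tested, none was called in any of the 3 comparisons, with a median log2 change of −0.03 for 0 D against normal, −0.12 for −30 D against normal and −0.06 for −30 D against 0 D. Over all 197 miRNAs these medians were −0.04, −0.03 and 0.00.

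miR-129b-5p was detected on too few arrays for this fit, and its rise under the −30 D lens was known beforehand, so that it is described without a test. Against the normal array it had log2 ratios of 1.52 ± 0.24 in the sclera, 1.20 ± 0.32 in the iris and 0.55 ± 0.32 in the choroid, and it was at least 1.49-fold higher in the cornea. Against the 0 D array the ratios were 1.44 ± 0.30 in the sclera and 1.42 ± 0.29 in the iris, and the signal was at least 1.67-fold higher in the choroid and at least 1.86-fold higher in the cornea. The 0 D and the normal arrays differed by 0.08 ± 0.33 in the sclera and −0.21 ± 0.37 in the iris, less than the error. Both probes rose, from 7.74 and 6.68 in the normal to 24.5 and 16.9 in the −30 D sclera and from 3.96 and 3.76 to 9.95 and 7.81 in the iris. In the cornea they rose from 0.13 and 0.16, within the noise, to 22.6 and 13.5.

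The criteria of the study for a change were then applied. They ask for a ratio over 2 or under 0.5 where both arrays detect a miRNA and over 5 or under 0.2 where 1 array does, and the array without detection was set to 0.1 here. The lowest scaled signal detected on any array was 1.09, so that detection on 1 array of a pair was always called. By these criteria miR-129b-5p was higher in 3 of its 4 tissues on the −30 D against the normal array. These were iris and sclera, and cornea by detection on 1 array alone. In this comparison 9.27% of all ratios were called higher and 7.92% lower, and 14.8% were called higher in these 4 tissues. On the −30 D against the 0 D array miR-129b-5p was higher in 4 of 4 tissues, in choroid and cornea by detection on 1 array alone. The shares called higher were 7.95% over all tissues and 13% in these 4. On the 0 D against the normal array miR-129b-5p was called lower in the choroid alone, the array at 2.99 errors, where 7.43% of all ratios were lower and 9.25% of those in its 4 tissues higher. miR-129-5p and miR-129-2-3p had no call in any of the 3 comparisons. miR-129-1-3p was called lower in the choroid for −30 D against normal, higher in the iris for 0 D against normal (8.15% of all ratios), and lower in both for −30 D against 0 D (7.45%), each time with 1 array at the limit of detection and no bound on the ratio. Of 165 miRNAs detected on all 6 iris and sclera arrays, 3.03% had a −30 D signal more than 2-fold above both other arrays in both tissues: miR-1224-5p, miR-129b-5p, miR-504-3p, miR-6904-5p and miR-6918-5p.

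**Figure D5:**
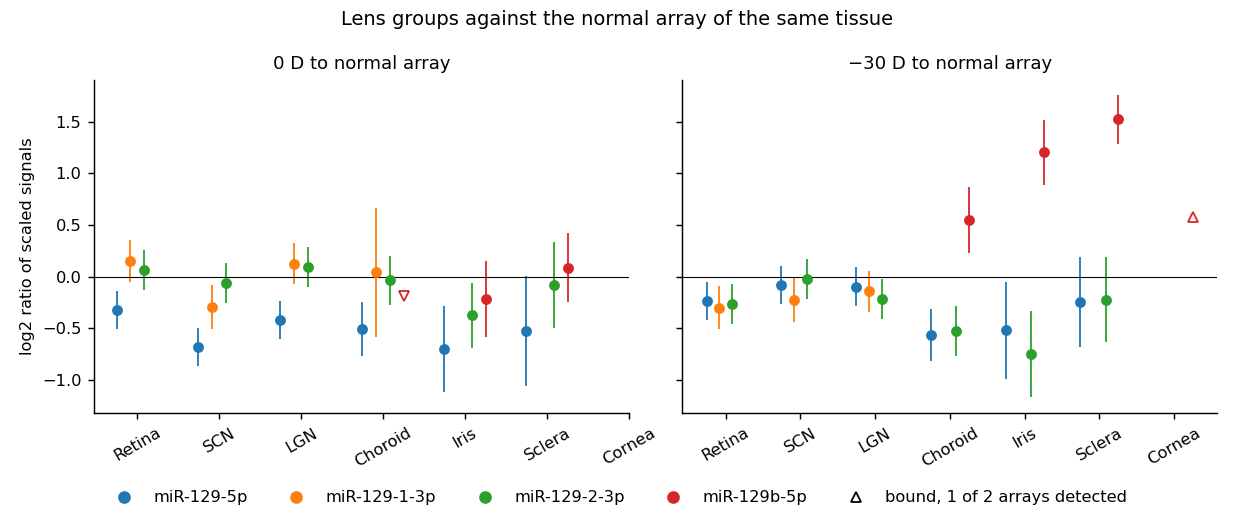
Log2 ratio of the scaled signal on the 0 D array (left) and the −30 D array (right) to the normal array of the same tissue, colored by member, with bars for the error within the 2 arrays and open triangles for bounds. miR-129-5p is below 0 in all 6 tissues on the left, and miR-129b-5p reaches 1.20 in the iris and 1.52 in the sclera on the right.

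The miRNAs with the most similar pattern were found by Spearman's rho over the 24 arrays, with undetected values tied at the lowest rank. The points are arrays, 3 from each of 8 tissues, and are not independent, so that rho is given as a description. Within the family miR-129-5p and miR-129-2-3p had a rho of 0.97, miR-129-1-3p had 0.82 with each, and miR-129b-5p had −0.31 with miR-129-5p, −0.32 with miR-129-2-3p and −0.56 with miR-129-1-3p. Nearest to miR-129-2-3p were miR-9-3p (0.95), miR-3099-3p (0.95), miR-29a-3p (0.94), miR-300-3p (0.94) and miR-132-3p (0.93). Nearest to miR-129-5p were miR-29c-3p (0.94), miR-3099-3p (0.92), miR-29c-5p (0.91), miR-345-5p (0.90) and let-7g-5p (0.90). Nearest to miR-129-1-3p were miR-219a-5p (0.90), miR-326-3p (0.89), miR-9-5p (0.89), miR-138-5p (0.87) and miR-29b-3p (0.86). miR-3099-3p was thus near both arms of Mir129-2.

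Nearest to miR-129b-5p were miR-1927 (0.97), miR-7218-5p (0.95), miR-7682-3p (0.95), miR-504-3p (0.95) and miR-574-3p (0.90), each detected on all 9 of its arrays and on 10 or 11 in all, so that shared absence makes up much of the rho. The first 4 followed the lens pattern of miR-129b-5p, which is part of the values that gave the rho. In the sclera miR-1927 had 15.02, 14.6 and 34.5 in the normal, 0 D and −30 D group, miR-7218-5p had 17.96, 18.5 and 44.8, miR-7682-3p had 11.8, 12.6 and 29.5, and miR-504-3p had 20.6, 19.5 and 58.6. None of the 4 was detected on the normal or 0 D cornea array, and on the −30 D cornea array they had 32.9, 38.4, 26.0 and 54.6 in this order. miR-574-3p was also detected on the −30 D cornea array alone (46.4) and was highest on the −30 D array in the choroid (7.62, 7.20 and 20.8), but not in the sclera (19.5, 22.6 and 17.97) or the iris (17.6, 1.49 and 8.16).

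RefSeq held the sequences of 2 of these neighbors, shown with the seed in capitals because neither shares the seed of miR-129b-5p:
miR-7218-5p: uGCAGGGUuuaguguagaggg
miR-574-3p: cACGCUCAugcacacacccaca
G made up 36.4% of the bases of miR-129b-5p, 47.6% of miR-7218-5p and 9.09% of miR-574-3p, against a median of 26.1% over the 255 miRNAs with a sequence detected on at least 6 arrays. Of the miRNAs that the study lists as higher with miR-129b-5p in cornea, iris and sclera, a list made on these arrays, miR-1224-5p had 165, 291 and 792 in the sclera, miR-7686-5p 4.21, 6.02 and 20.0, and miR-2137 7.65, 12.8 and 17.7. The 0 D sclera array was above the normal one for all 3, by log2 ratios of 0.82 ± 0.18 for miR-1224-5p and 0.75 ± 0.37 for miR-2137. For miR-7686-5p the ratio, 0.52 ± 0.64, was less than its error.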

How the data were processed

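The authors scanned the arrays with Agilent Feature Extraction 10.7.1.1, and the deposited scanner files hold an intensity per probe after background subtraction, with its error. The files also print a total per miRNA, which differed from the sum of its probes by over 0.02 for 17 of the members' values, and the sum over probes above 3 errors was used. A deposited table named normalized was not used here, since its column names could not be assigned to arrays. Each array was brought to a common 75th percentile of the 79 miRNAs that every array detected, and log2 values were tested with limma 3.58.1 (R 4.3.3), tissue plus lens group, over the 197 miRNAs detected on at least 12 arrays, undetected values being dropped, with Benjamini-Hochberg adjustment and a threshold of 0.05. A bound set the undetected side at 3 errors per probe, or at the lowest detected signal of the array if higher. The number of arrays limits the precision. On simulated data with 60 of the 197 miRNAs changed 2-fold in the −30 D group, 59 were called for −30 D against normal, with 6 calls among the unchanged.

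Samples were grouped by their labels into 8 tissues and 3 lens groups. The named miRNAs were the members, the 5 outside the family with the highest rho to each, and lists of neuronal, cell type and study-listed miRNAs. Members and lists were chosen with earlier results of these data known. Alternatives changed the scaling (none, quantile), the background correction (normexp, offset 50), the probe summary, the undetected value, the filter, the tissues used and the threshold. The comparison of arms on one array and of single probes was added after the values were seen. The other steps were run in Python 3.11.15 with scipy 1.17.1, pandas 2.3.3 and numpy 2.4.6.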

Additional observations from a re-analysis of the deposited data

How the results depend on the processing

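With 1 array per tissue and group, all ratios within a tissue lack replicates, and dim signals in iris, choroid and sclera have wide errors. The labels give no replicate numbers, and arrays were paired by tissue alone. The deposited normalized table, the 75th percentile over all miRNAs (it falls on the value for undetected ones) and the search for miRNAs moving with miR-129b-5p within tissues (it was detected on 9 arrays, and 12 were needed) were not run. Where no cause is named below, the cause was not tested.

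Without scaling, retina minus SCN was 1.30 for miR-129-5p, 0.30 for miR-129-2-3p (reversed from −0.34) and 0.89 for miR-129-1-3p, retina minus LGN was 1.42, 0.75 and −0.25, retina minus choroid was 4.51 for miR-129-5p and 4.48 for miR-129-2-3p, and sclera minus iris of miR-129b-5p was 0.32. Neural minus other tissues was then 5.12, 5.77 and 3.74 for miR-129-5p, miR-129-2-3p and miR-129-1-3p, and the retinal share was 4.48% and 4.55% in the choroid and 1.25% and 1.22% in the sclera for the first 2. With quantile normalization, retina minus SCN was 1.03 for miR-129-5p and 0.99 for miR-129-1-3p, miR-129-2-3p had retina minus LGN at 0.41 and retina minus choroid at 4.05, sclera minus iris of miR-129b-5p was 0.45, and neural minus other was 3.36, 4.21 and 1.44 for the arms in the order above. With normexp, which keeps an offset under dim signals, retina minus choroid was 3.04 for miR-129-5p and 3.21 for miR-129-2-3p, retina minus LGN was 0.61 for miR-129-2-3p and −0.23 for miR-129-1-3p, sclera minus iris of miR-129b-5p was 0.80, and neural minus other was 2.42, 3.09, 1.08 and, for miR-129b-5p, −1.003. With each array's own lowest signal for undetected values these were 4.78, 5.42, 3.88 and −2.69.

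With the printed totals, miR-129-2-3p had retina minus LGN at 0.55 and retina minus choroid at 1.73, miR-129-1-3p had retina minus SCN at −2.73 and retina minus LGN at 0.42 (reversed), and neural minus other was 3.62 for miR-129-5p and 2.97 for miR-129-2-3p. Leaving out each lens group in turn moved none of these values beyond the spread.

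Of the 5 nearest miRNAs, Pearson's r at a common floor shared 2 for miR-129-5p, 1 for miR-129-1-3p and 2 for miR-129-2-3p. Without scaling 2, 3 and 1 were shared, and among miRNAs detected on at least 12 arrays 3 for miR-129-1-3p and 0 for miR-129b-5p. By the study's criteria, undetected values at the lowest signal left 108 of 306 calls for −30 D against normal, 92 of 279 for 0 D against normal and 0 of 2 for the members in the latter. A ratio of 3 where both arrays detect a miRNA left 2 of 4 calls of the members for −30 D against normal. The calls of miR-129b-5p in iris and sclera were lost. Those left, miR-129b-5p in the cornea and miR-129-1-3p in the choroid, rest on detection on 1 array, which this ratio does not touch.

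For 0 D against normal, 7 miRNAs were called by limma, 33 without scaling, 2 with quantile normalization, 2 with the common floor, 0 with ocular tissues alone, 3 with miRNAs detected on all arrays, and 1 to 4 without each tissue in turn, where miR-129-5p was called each time (adjusted p 0.00843 to 0.0458 without a tissue). miR-129-2-3p reversed to 0.20 without scaling and 0.0069 with the floor. miR-129-1-3p, near 0, reversed to −0.0019 with the floor and ran from −0.042 (without retina, also below 0 without choroid or LGN) to 0.107 (without SCN) without 1 tissue. For −30 D against 0 D, 5 were called, 44 without scaling, 10 with quantile normalization, 1 with the floor, 1 with ocular tissues, 9 with miRNAs detected on all arrays and 1 to 6 without each tissue in turn (1 without choroid, cornea, iris, lens or SCN). There miR-129-5p reversed to −0.018 without scaling and miR-129-2-3p was called (−0.52, adjusted p = 0.0249). On the same array, miR-129-5p against miR-129-2-3p was 0.045 for −30 D against normal, where miR-129-5p alone had −0.29.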
